A study of Mus musculus with 7 samples.

Results

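The opioid system of the forebrain is described here through 7 genes, *Penk*, *Pdyn* and *Pnoc*, which encode the peptide precursors, and *Oprm1*, *Oprd1*, *Oprk1* and *Oprl1*, which encode the receptors. They were chosen by symbol from the 47729 genes of the count table, and all 7 were among the 19684 genes tested, which had 10 counts or more in 3 libraries or more. Forebrain RNA was sequenced at postnatal day 15 (P15) from 4 control (*Lhx6*+/-) and 3 mutant (*Lhx6*-/-) samples on the F1(C57BL/6 X 129Sv) strain, each a pool of 2 animals. The allele is Lhx6tm2Vpa, so the controls are heterozygous for the null allele that the mutants carry on both chromosomes, and the loss in mutants is germline, in every cell that would express *Lhx6*, a LIM homeodomain transcription factor of interneurons born in the medial ganglionic eminence (MGE). The columns of the count table are named by genotype and library, 2, 3, 10 and 11 among controls and 5, 12 and 13 among mutants, and values per library are given below in these orders. The sex and RNA quality recorded for each pool could not be assigned to a library. Nothing states that pools of a genotype came from separate litters, and p-values measure only the spread between these pools.

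Libraries summed to between 32556304 and 38069151 expected counts, which are read numbers estimated per gene. *Lhx6* itself had 615, 522, 476 and 522 normalized counts in controls and 70.9, 76.6 and 70.1 in mutants, so that all 7 libraries matched their labels. Normalized counts are counts divided by the effective library size, on the scale of the mean library. The first principal component (39.6% of the variance) separated libraries 2, 3 and 5 from libraries 10 to 13, and differences within these low-numbered and high-numbered libraries are given below beside those of all 7. Across all genes, 954 differed between genotypes, 585 of them higher and 369 lower in mutants.

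Opioid peptides are cut from large secretory precursors at pairs of basic residues and released from dense-core vesicles. Enkephalins come from *Penk* and act mainly on the delta and mu receptors (*Oprd1* and *Oprm1*), dynorphins come from *Pdyn* and act mainly on the kappa receptor (*Oprk1*), and nociceptin, also called orphanin FQ, comes from *Pnoc* and acts on its own receptor (*Oprl1*). All 4 receptors couple to Gi/o proteins, which open inward rectifier potassium channels, close presynaptic calcium channels and inhibit adenylyl cyclase. In the forebrain, *Penk* is known for striatal neurons of the indirect pathway, *Pdyn* for striatal neurons of the direct pathway and dentate granule cells, and *Pnoc* for GABAergic neurons of cortex and extended amygdala.

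The precursors differ in how many opioid cores they hold, which bears on what a transcript of each can yield. In the GENCODE M21 transcripts (GRCm38), the coding sequence of *Penk* (268 codons) held 7 copies of the enkephalin core, a run of codons for tyrosine, glycine, glycine and phenylalanine, and 6 of the copies were followed by methionine and 1 by leucine. *Pdyn* (248 codons) held 3 copies, all followed by leucine, and *Pnoc* (187 codons) held 1, which opens with phenylalanine in place of tyrosine and is followed by threonine. All 11 cores stood directly after a pair of codons for basic residues. The stretches below are coding strand, 5′ to 3′, with the 4 core codons in capitals, the basic pair before them and the next codon after them. They show the common and the leucine form of *Penk*, the 3 copies of *Pdyn* and the single copy of *Pnoc*.
Penk, copy 2: aaacggTACGGAGGCTTCatg
Penk, copy 6: aagaggTATGGGGGCTTCctg
Pdyn, copy 1: aaacgcTATGGCGGCTTTttg
Pdyn, copy 2: aaacgcTATGGGGGCTTCctg
Pdyn, copy 3: aagcgcTATGGTGGTTTCctg
Pnoc, copy 1: aaaaggTTTGGGGGCTTCacc
The letter that tells the *Pnoc* core from the others lies in its first codon, where TTT stands in place of TAT or TAC.

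Of the 3 precursors, 2 rose in mutants and 1 did not change beyond the spread between libraries. *Pnoc* rose 3.51-fold and *Penk* 2.29-fold, while *Pdyn* stood at 0.870 of its control level. None of the 4 receptors passed the test, and all 4 had negative log2 fold changes, between -0.48 and -0.12. Genes with an adjusted p of 0.05 or less in edgeR's quasi-likelihood test made up 4.85% of all tested genes, 2.97% as higher and 1.87% as lower in mutants, and 2 of the 7 opioid genes were called, both higher. In bulk tissue, fewer or more cells of a type cannot be told apart from less or more RNA per cell.

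**Figure D1:**
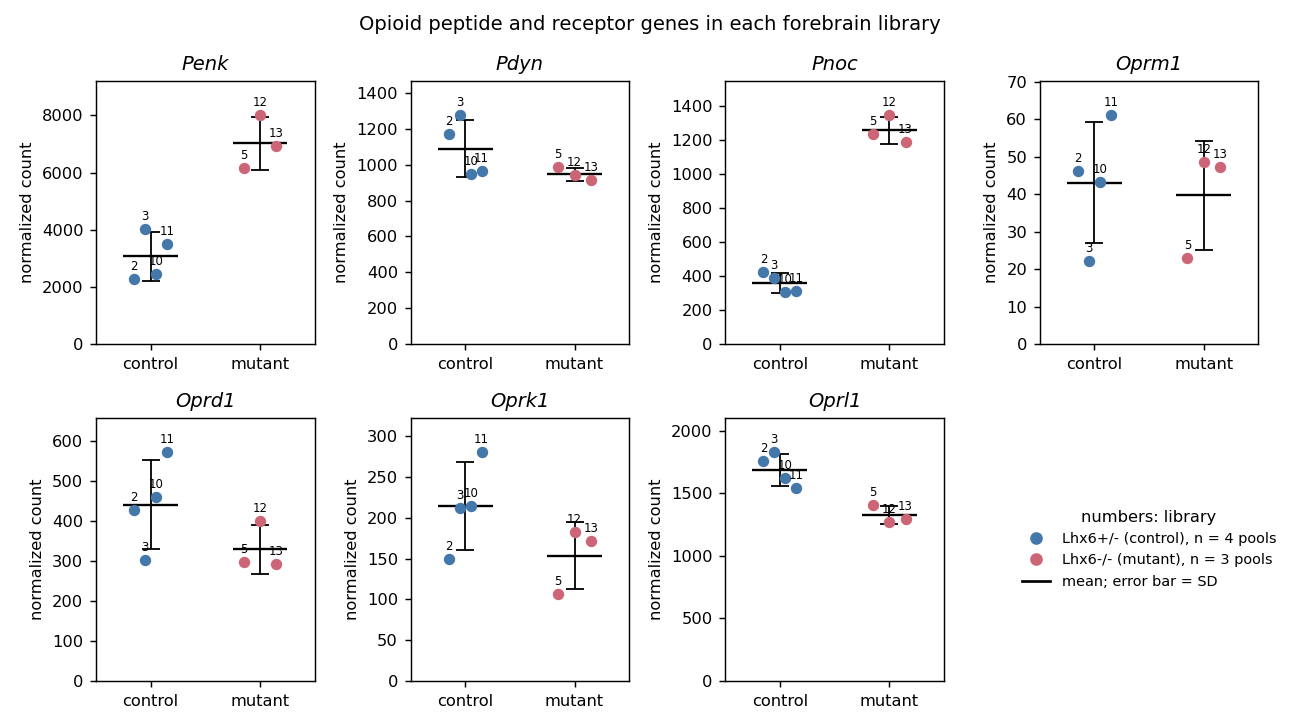
Normalized counts (vertical axes, each from 0) of the 7 opioid genes in the 4 control libraries (blue) and 3 mutant libraries (red), with library numbers, means and SD bars. The mutant libraries lie above all controls for *Penk* (6160 to 7999 against 2272 to 4025) and *Pnoc* (1188 to 1343 against 308 to 422) and below them for *Oprl1* (1270 to 1406 against 1541 to 1830), and the groups overlap for the other 4 genes.

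*Pnoc* (chr14:65400673-65425472, minus strand, GRCm38) stood at 422, 391, 308 and 312 normalized counts in the controls and at 1236, 1343 and 1188 in the mutants. The groups were far apart, with the lowest mutant library above the highest control. The means were 358 ± 57.2 (SD, n = 4) and 1256 ± 79.5 (SD, n = 3), a log2 fold change of 1.81 (SE 0.132, 95% interval 1.51 to 2.11, edgeR adjusted p = 0.000389). By p-value *Pnoc* was 17th of the 19684 genes, and by size its increase was 97th of the 585. The log2 difference was 1.61 among low-numbered and 2.03 among high-numbered libraries. All 16 alternative fits called it.

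*Penk* (chr4:4133531-4138819, minus strand) stood at 2272, 4025, 2454 and 3518 normalized counts in the controls and at 6160, 7999 and 6923 in the mutants. The groups did not overlap, but the controls fell into a lower pair (2 and 10) and a higher pair (3 and 11) that cut across the low and high library numbers. The means were 3067 ± 842 (SD, n = 4) and 7027 ± 924 (SD, n = 3), a log2 fold change of 1.20 (SE 0.201, 95% interval 0.74 to 1.65, edgeR adjusted p = 0.0130). The SD was 27.5% of the mean in controls and 13.1% in mutants. The log2 difference was 1.03 among low-numbered and 1.34 among high-numbered libraries. The call was lost without mutant library 12 (log2 fold change 1.09, edgeR adjusted p = 0.0595) and without mutant library 13 (1.21, edgeR adjusted p = 0.0579), and over the 16 alternatives the adjusted p ran from 4.06e-07 to 0.0595.

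Mutant libraries stood all above the controls for 10.7% of tested genes and for *Penk* and *Pnoc* among the 7. Exons of *Penk* overlapped those of A830012C17Rik on the opposite strand over 14.3% of their bases, and whether the counting used strand is not known. That gene had a mean of 8.64 normalized counts in controls and 18.4 in mutants, far below *Penk*. Exons of *Pnoc* overlapped no other gene, and 0.603% of its 36-base words occurred in other genes.

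*Pdyn* (chr2:129686565-129699844, minus strand) stood at 1172, 1274, 947 and 962 normalized counts in the controls and at 985, 943 and 913 in the mutants. The low-numbered controls were the highest, and the other 2 lay within the range of the mutants. The means were 1089 ± 161 (SD, n = 4) and 947 ± 36.1 (SD, n = 3), a log2 fold change of -0.20 (SE 0.119, 95% interval -0.47 to 0.070, edgeR adjusted p = 0.440). The log2 difference was -0.31 among low-numbered and -0.041 among high-numbered libraries, and no alternative fit called it. *Pdyn* lies on the chromosome of *Lhx6*, 93.6 Mb away.

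**Figure D2:**
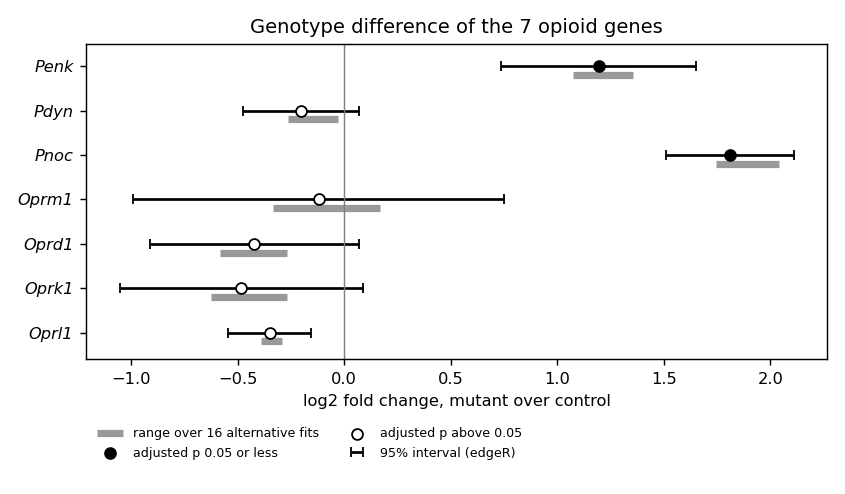
Log2 fold change of mutant over control (horizontal axis) for the 7 opioid genes, with the 95% interval of edgeR's fit as a black bar, filled points for an adjusted p of 0.05 or less and a grey bar for the range over 16 alternative fits. *Pnoc* (1.81) and *Penk* (1.20) are filled, and *Oprl1* (-0.35) is the open point whose interval lies below 0.

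Among the receptors, *Oprl1*, the nociceptin receptor (chr2:181715016-181720985, plus strand), came nearest to the threshold. It stood at 1756, 1830, 1622 and 1541 normalized counts in the controls and at 1406, 1270 and 1294 in the mutants, and every mutant library lay below every control, as for 9.0% of tested genes. The means were 1687 ± 130 (SD, n = 4) and 1324 ± 72.7 (SD, n = 3), a log2 fold change of -0.35 (SE 0.0853, 95% interval -0.54 to -0.16), with an edgeR p of 0.00288 before and 0.0548 after adjustment. The log2 difference was -0.35 among low-numbered and -0.30 among high-numbered libraries. *Oprl1* was called lower by DESeq2 (adjusted p = 0.00898, where 3.7% of tested genes were lower), by edgeR with low or high library number as a covariate (adjusted p = 0.00983, 5.04%) and by edgeR in libraries 10 to 13 alone (adjusted p = 0.0282, 4.48%), so its call rests on the model. It too lies on chromosome 2, 145.6 Mb from *Lhx6*.

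*Oprd1*, the delta receptor on which enkephalins act (chr4:132110726-132144486, minus strand), stood at 428, 301, 459 and 571 normalized counts in the controls and at 296, 398 and 291 in the mutants. Control library 3 lay among the mutants. The log2 fold change was -0.42 (SE 0.216, 95% interval -0.91 to 0.070, edgeR adjusted p = 0.359), and the log2 difference was -0.28 among low-numbered and -0.59 among high-numbered libraries.

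*Oprk1*, the dynorphin receptor (chr1:5588466-5606131, plus strand), stood at 149, 212, 215 and 281 normalized counts in the controls and at 106, 182 and 171 in the mutants. Control library 2 lay below mutant libraries 12 and 13, so the groups overlapped. The log2 fold change was -0.48 (SE 0.250, 95% interval -1.05 to 0.087, edgeR adjusted p = 0.365), and the log2 difference was -0.74 among low-numbered and -0.47 among high-numbered libraries.

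*Oprm1*, the mu receptor at which morphine acts (chr10:6758506-7038198, plus strand), was the weakest of the 7, with 46.1, 22.1, 43.2 and 61.0 normalized counts in controls and 23.0, 48.6 and 47.3 in mutants. In both groups a low-numbered library (3 and 5) had the lowest value. The log2 fold change of -0.12 had a 95% interval from -0.99 to 0.75 (edgeR adjusted p = 0.918), which includes a fall by nearly a factor of 2. The cause of this width was not tested. The sign turned without control library 11 (0.096) and without mutant library 5 (0.17). Its exons shared 96 bases with *Ipcef1* on the opposite strand, a gene with 3495 ± 152 normalized counts in controls (SD, n = 4) and 2012 ± 78.9 in mutants (SD, n = 3).

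Summed within a library, the 4 receptors had 2339 to 2454 normalized counts in controls and 1804 to 1899 in mutants, a sum of which *Oprl1* made up most. The 3 precursors together had 3709 to 5690 in controls and 8381 to 10290 in mutants, a sum of which *Penk* made up most, while *Pdyn* did not rise. Neither sum overlapped between groups, as *Penk* and *Oprl1* did not by themselves.

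Per kilobase of exon, the levels of the 7 genes can be set side by side. In controls the order of mean normalized counts per kilobase was *Penk* (1877), *Oprl1* (449.6), *Pdyn* (377.2), *Pnoc* (166.1), *Oprd1* (109.3), *Oprk1* (23.4) and *Oprm1* (5.36). Of neighbours in that order, *Oprl1* and *Pdyn* had overlapping ranges and the others did not. In mutants *Pnoc* (582.2) stood between *Penk* (4301) and *Oprl1* (352.7), above both *Oprl1* and *Pdyn* (328.0), with the order of the others as in controls. *Oprl1* and *Pdyn* again overlapped.

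**Figure D3:**
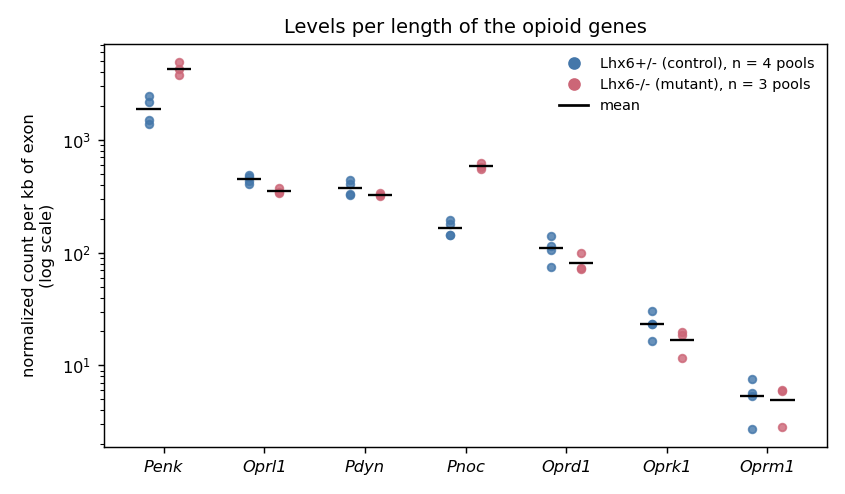
Normalized counts per kilobase of exon (vertical axis, log scale) of the 7 opioid genes, ordered by their control mean, in control (blue) and mutant (red) libraries with bars at the means. *Pnoc* moves from below *Pdyn* in controls (166.1 against 377.2) to above *Oprl1* in mutants (582.2 against 352.7).

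Ratios between members of the same library do not depend on library scaling, and 5 were compared by a two-sided exact permutation test, for which 4 against 3 libraries cannot give a p below 0.0571. *Pnoc* relative to its receptor *Oprl1* went from a mean log2 ratio of -2.24 ± 0.144 (SD) in controls to -0.076 ± 0.140 in mutants, both in counts that are not divided by exon length. That is a 4.50-fold difference (exact permutation p = 0.0571, adjusted over the 5 ratios 0.0952), and on the log2 scale it was 1.95 among low-numbered and 2.33 among high-numbered libraries. *Penk* relative to *Oprd1* was 1.63 higher on the log2 scale (exact permutation p = 0.0571, adjusted 0.0952), with control library 3 near the mutants. *Pdyn* relative to *Penk* was lower by a log2 difference of -1.42 (exact permutation p = 0.0571, adjusted 0.0952). These 3 ratios did not overlap between genotypes and reached the smallest p the design allows, which is above 0.05. In mutants *Pnoc* alone lay above and *Oprl1* alone below every control, so their ratio had to separate and its p was fixed. The ratios with *Penk* hold a gene that separated by itself. They are therefore not separate evidence beyond the single genes, and the share of other gene pairs that would separate was not tested.

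*Pnoc* relative to *Penk* was 0.59 higher in mutants on the log2 scale (exact permutation p = 0.171, adjusted 0.214), so the 2 increases were not shown to differ in size. *Pdyn* relative to *Oprk1* differed by 0.29 (exact permutation p = 0.4).

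The wider opioid pathway was followed in 50 further genes, all tested, of which 3 were called higher and 2 lower. Against 2.97% and 1.87% of all genes, these counts lie near the background. *Pomc*, the precursor of beta-endorphin, had 54.8 ± 12.6 normalized counts in controls (SD, n = 4) and 59.0 ± 17.2 in mutants (SD, n = 3). *Pomc* was not called (edgeR adjusted p = 0.890), nor were *Ogfr* and *Ogfrl1*, the opioid growth factor receptor and its relative.

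Of 10 genes that process prohormones, 2 rose. *Pcsk1*, a convertase that cuts precursors at basic pairs like those printed above, went from 694 ± 79.0 normalized counts (SD, n = 4) to 1217 ± 49.2 (SD, n = 3), a log2 fold change of 0.81 (SE 0.103, edgeR adjusted p = 0.00424). *Pam*, which makes the amide end of many neuropeptides, went from 6394 ± 215 to 9383 ± 258, a log2 fold change of 0.55 (SE 0.0719, edgeR adjusted p = 0.00466). *Pcsk2*, the other main neuroendocrine convertase, had a log2 fold change of -0.31 (edgeR adjusted p = 0.155) and *Cpe*, which trims the basic residues left after cutting, of 0.18 (edgeR adjusted p = 0.354). The list had a median log2 fold change of 0.11 against -0.013 over all tested genes.

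None of 9 genes for enzymes that degrade opioid peptides was called (median log2 fold change 0.23). *Mme*, which encodes neprilysin, the main enkephalin-cleaving endopeptidase, had 314 ± 70.9 and 287 ± 107 normalized counts (SD, n = 4 and n = 3, edgeR adjusted p = 0.867).

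Downstream of the receptors, *Rgs8*, which speeds the switching off of Gi/o proteins, had 3156 ± 267 normalized counts in controls (SD, n = 4) and 5912 ± 393 in mutants (SD, n = 3), a log2 fold change of 0.91 (SE 0.0907, edgeR adjusted p = 0.00132). *Adrbk2*, a kinase that phosphorylates active receptors, fell from 3457 ± 287 to 2488 ± 139 (log2 fold change -0.47, edgeR adjusted p = 0.0188), a call lost without control library 10 and without mutant library 12 or 13, where the adjusted p reached 0.111. They were the calls among 18 genes for G proteins, arrestins, receptor kinases and RGS proteins, whose median was -0.016. *Rgs4*, from the same family as *Rgs8*, had a log2 fold change of 0.53 (edgeR adjusted p = 0.0594) and was called in 5 of 16 alternatives.

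*Kcnj9*, a subunit of the potassium channels that Gi/o-coupled receptors open, was the only call among 9 effector genes. It stood at 5600, 5400, 4954 and 5227 normalized counts in the controls and at 2604, 2780 and 2498 in the mutants. Every mutant library lay far below the controls, at a log2 fold change of -1.01 (SE 0.0802, edgeR adjusted p = 0.000581). Its partner subunits *Kcnj3* and *Kcnj6* had log2 fold changes of -0.21 and 0.16 (edgeR adjusted p = 0.339 and 0.788). *Kcnj9*, *Pcsk1*, *Pam* and *Rgs8* were called in all 16 alternative fits.

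**Figure D4:**
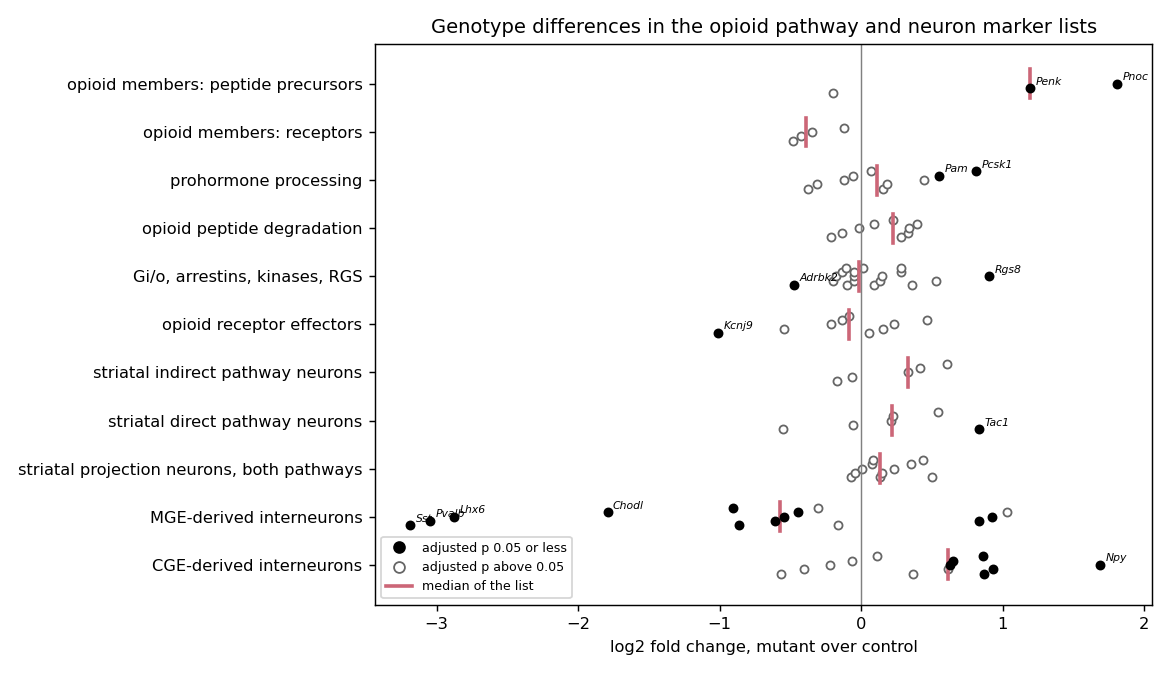
Log2 fold change of mutant over control (horizontal axis) for each gene of the opioid, pathway and neuron marker lists (rows), filled for an edgeR adjusted p of 0.05 or less, with a red bar at each list's median; called genes are named, in the interneuron rows only the outermost. The precursor row reaches 1.81 (*Pnoc*), the receptor row lies between -0.48 and -0.12, and the MGE row reaches -3.19 (*Sst*).

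*Penk* was set beside other genes of striatal projection neurons. Of 22 striatal genes tested, 9 had control libraries 3 and 11 above 2 and 10, as *Penk* did, against 7.76% of all tested genes. Among them were *Adora2a*, *Drd1*, *Tac1* and *Ppp1r1b*. Of the indirect pathway genes only *Adora2a* had this order, and *Drd2*, *Gpr6*, *Sp9* and *Ptprm* did not. None of the 5 indirect pathway genes was called between genotypes (median 0.33, summed level 3303 to 4482 in controls and 3352 to 4914 in mutants). *Adora2a*, the adenosine receptor of these neurons, had a log2 fold change of 0.42 (edgeR adjusted p = 0.441), and *Drd2*, their dopamine receptor, of 0.60 (edgeR adjusted p = 0.425). In the same list *Sp9* was positive (0.33), and *Gpr6* (-0.17) and *Ptprm* (-0.064) were negative.

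Of 6 direct pathway genes *Tac1*, the substance P precursor, rose (log2 fold change 0.83, edgeR adjusted p = 0.0333). *Tac1* stands in the MGE interneuron list below as well, and in which cells it rose was not tested. *Drd1*, the dopamine receptor of direct pathway neurons, had a value of 0.21 (edgeR adjusted p = 0.651). The negative genes of the list were *Chrm4* (-0.55, edgeR adjusted p = 0.190) and *Eya1* (-0.056). The direct pathway list had a median of 0.22 and summed to 3757 to 4400 normalized counts in controls and 4008 to 5070 in mutants. None of 11 genes of both pathways was called (median 0.13, summed level 54820 to 68060 in controls and 60750 to 76210 in mutants). The part of striatal content in the *Penk* difference was not tested.

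Divided by marker genes of the same library, *Penk* stood higher in every mutant library than in any control for 3 of the 4 markers compared. These ratios were chosen after the values were seen and carry no test. *Penk* over *Ppp1r1b*, a phosphoprotein of striatal projection neurons, was 0.437, 0.513, 0.618 and 0.530 in the controls and 0.911, 0.910 and 0.972 in the mutants. Over this marker, 1 of the 11 genes of both pathways, the controls drew together, without the 2 pairs seen in *Penk* alone. The groups did not overlap. The drawing together does not hold for every gene of that list. *Pde10a*, of the same list, was lowest among controls in library 3 (3428 normalized counts), where *Penk* was highest. A ratio to *Pde10a* would set that library apart. *Penk* over *Adora2a* was 2.93 ± 0.418 in controls and 5.17 ± 0.975 in mutants, again without overlap, and *Penk* over *Gad1*, a gene of all GABAergic neurons, was 0.384 ± 0.116 and 0.616 ± 0.0275, also without overlap. *Penk* over *Drd2* overlapped (8.72 ± 3.49 and 12.7 ± 3.58), and *Drd2* itself varied from 240 to 642 normalized counts among the controls.

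For *Pdyn*, the ratio to *Drd1* overlapped between genotypes (1.66 ± 0.369 and 1.29 ± 0.416). The ratio to *Tac1* was 2.29 ± 0.584 in controls and 1.11 ± 0.258 in mutants, with every mutant library below the controls. *Tac1* itself was called higher in mutants and is in the MGE interneuron list too, so this ratio does not stand for direct pathway neurons alone.

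**Figure D5:**
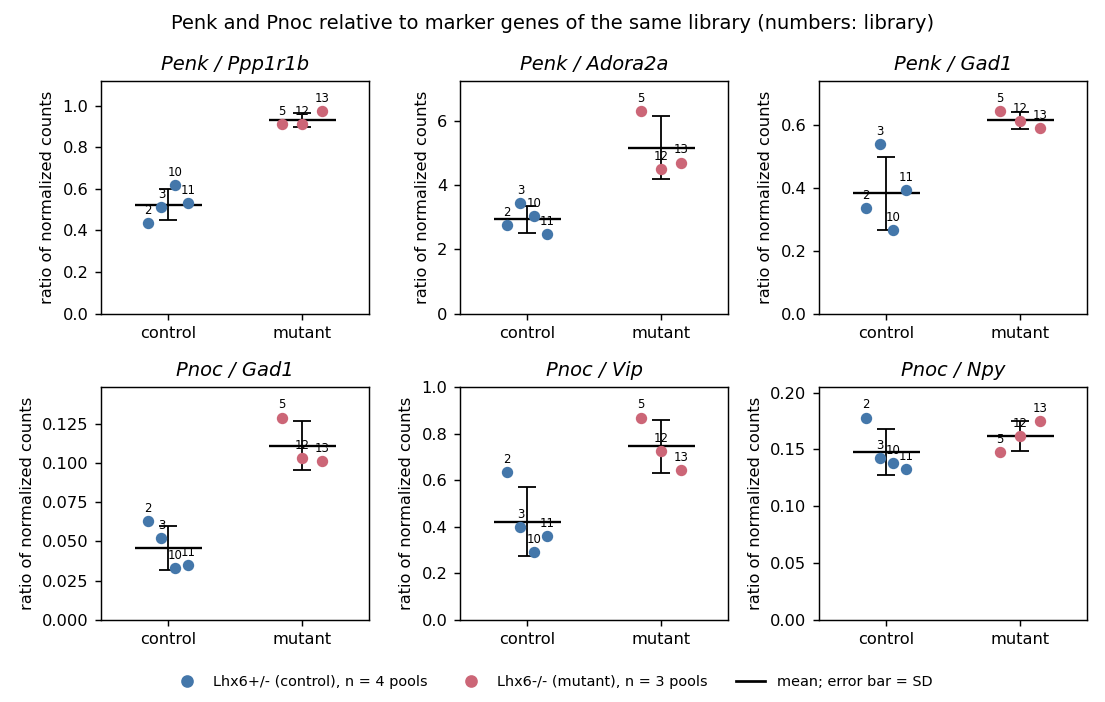
Ratio of normalized counts (vertical axes, from 0) of *Penk* to *Ppp1r1b*, *Adora2a* and *Gad1* and of *Pnoc* to *Gad1*, *Vip* and *Npy* in control (blue) and mutant (red) libraries, with library numbers, means and SD bars. The groups are apart in 5 panels and overlap for *Pnoc* over *Npy* (0.148 ± 0.0206 and 0.162 ± 0.0135).

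*Pnoc* was set beside interneuron genes in the same way. Of 13 genes of interneurons from the caudal ganglionic eminence (CGE), 6 rose (*Vip*, *Npy*, *Adarb2*, *Cnr1*, *Ndnf* and *Cck*) and none fell. Over all tested genes 2.97% were called higher and 1.87% lower. In the CGE list 4 uncalled genes were negative, *Calb2* (-0.57), *Nr2f2* (-0.41), *Lamp5* (-0.22) and *Prox1* (-0.067). The median was 0.61, and the summed level was 31550 to 34140 in controls and 48940 to 53180 in mutants. In counts the rise was largest for *Cck* (mean 7511 to 13686), *Npy* (2421 to 7818) and *Cnr1* (6257 to 11398). Of 14 MGE genes, 9 fell and 2 rose (median -0.58, 24730 to 27200 and 15190 to 16980). Those that rose were *Crhbp* and *Tac1*, and the call of *Tac1* is the one counted in the direct pathway list. Among those that fell *Sst*, the somatostatin precursor, went from 5356 ± 874 to 588 ± 70.7 normalized counts. No marker in either list was at 0 in all libraries. *Gad1* and *Gad2*, which make GABA, had log2 fold changes of 0.50 and 0.48 (edgeR adjusted p = 0.0951 and 0.0862). The part of cell numbers in the *Pnoc* difference was not tested.

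*Pnoc* over *Gad1* was 0.0459 ± 0.0142 in controls and 0.111 ± 0.0158 in mutants, and *Pnoc* over *Vip*, a peptide gene of CGE interneurons, was 0.422 ± 0.150 and 0.747 ± 0.114. Neither ratio overlapped between genotypes, although control library 2 (0.636) came close to mutant library 13 (0.646) for *Vip*. *Pnoc* over *Npy*, the neuropeptide Y precursor, was 0.178, 0.142, 0.138 and 0.133 in controls and 0.148, 0.162 and 0.175 in mutants, so the 2 genes differed between genotypes by nearly the same factor.

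The tested genes whose profiles over the 7 libraries lay nearest to that of *Pnoc* were *Cort*, *Arsj* and *Npy*, by root mean square differences of 0.140, 0.146 and 0.153 in log2 CPM (counts scaled to library size, with a prior count of 2), among 15761 genes with a mean CPM of at least 1. *Cort*, a peptide precursor related to *Sst*, went from 200.4 ± 53.1 to 762.7 ± 10.2 normalized counts, with its controls ordered as those of *Pnoc*, higher in libraries 2 and 3 than in 10 and 11. *Npy* went from 2421 ± 223 to 7818 ± 883. Nearest to *Penk* were *Adgrf4*, *Lhx8* and *Pla1a* (0.144, 0.161 and 0.174), all of low level, with control means of 29.6, 22.2 and 23.9 normalized counts. *Lhx8*, a LIM homeodomain gene of the ventral forebrain related to *Lhx6*, went from 22.2 ± 8.48 to 58.2 ± 7.28.

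Markers of other cells and regions were followed for the dissection as a whole. No gene was called in the lists for claustrum and amygdala (7 genes), microglia (7), endothelium (6), choroid plexus (6) and blood (5). Further calls were *Calb1* and *Lct* lower of 8 dentate genes, *Gfap* higher of 8 astrocyte genes, *Mbp*, *Mag* and *Cnp* lower of 9 oligodendrocyte genes, and *Fosb* and *Npas4* higher of 13 immediate early genes. *Slc17a7*, the transporter of excitatory neurons, had a log2 fold change of 0.25 (edgeR adjusted p = 0.203). Of 12 thalamic and hypothalamic genes, 8 were tested, with *Gal* higher and *Lhx2* lower, and the defining hypothalamic peptides *Hcrt*, *Pmch* and *Oxt* reached at most 5.58 counts in any library.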

How the data were processed

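Per the labels and the study's methods, single-end reads of 36 bp were trimmed by the authors (cutadapt 1.9.1), aligned with Bowtie2 2.2.9 to mouse transcripts (GRCm38) and deposited as RSEM 1.2.31 expected counts per gene, without normalization. RSEM shares a read among genes that match it equally, so genes with close copies are less certain. Their deposited DESeq2 table was used for gene symbols only, and its fold changes and p-values were not used. No per-sample column was left unused (0).

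Counts were rounded, genes with 10 counts or more in 3 libraries or more were kept, and genotypes were compared with edgeR 4.0.16 (R 4.3.3; TMM, quasi-likelihood test with the legacy setting, no covariate) and Benjamini-Hochberg adjustment over 19684 genes, with a threshold of 0.05. Replicates differed by more than sampling noise (chi-square per degree of freedom 9.35 to 65.9), so each library counted once. A count of 0 allows up to 3 counts (0.0797 to 0.0923 CPM), which covers counting error only. Ratios between members used rounded counts plus 0.5 and two-sided exact permutation tests (scipy 1.17.1). Marker ratios used normalized counts with nothing added. Alternatives were DESeq2 1.42.0, limma-voom 3.58.1, other normalizations and filters, low (2, 3, 5) or high library number as a covariate, libraries 10 to 13 alone and each library left out.

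Members and lists were chosen with earlier results of these data known. All 7 members were named, with genes of the lists that were called, up to 4 others a list (with *Drd1*, *Tac1*, *Drd2*, *Adora2a*, *Slc17a7*, *Gad1*, *Gad2*, *Sst*, *Vip* and *Lhx6* always), and the 3 genes nearest in profile to each called member. Some genes of the lists, and the counts that rest on them, are not reported here.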

Additional observations from a re-analysis of the deposited data

Results flagged for a closer look

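In 1 of 12 groups of 4 control libraries tested, 1 library stood apart from the others. For *Penk* over *Oprd1*, control library 3 had a log2 ratio of 3.74 against a lowest control of 2.41, and its gap to the nearest other control was 0.839 of the whole range, above the critical value for 4 samples. In that library *Penk* was the highest (4025) and *Oprd1* the lowest (301) of the controls. Chance flags about 1 in 20 such groups.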

How the results depend on the processing

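Over 16 alternative fits, *Pnoc* kept its call in all, *Penk* in 14, and *Pdyn*, *Oprd1*, *Oprk1* and *Oprm1* were never called. Among the opioid genes the number called lower went from 0 to 1 (*Oprl1*) with DESeq2 (log2 fold change -0.35), with low or high library number as a covariate (-0.32) and in libraries 10 to 13 alone (-0.29). In the same order the count of all genes called went from 954 to 1731, 2205 and 1922, and the pathway genes called higher from 3 to 5, 6 and 5. Pathway genes called lower went from 2 to 4 with that covariate. The cause was not tested. Leaving out 1 library at a time gave 302 to 971 called genes in all, 1 to 2 opioid genes higher and 0 lower, and 3 to 3 and 1 to 2 pathway genes higher and lower. Log2 fold changes then ran from 1.74 to 1.90 for *Pnoc*, 1.07 to 1.35 for *Penk*, -0.26 to -0.12 for *Pdyn*, -0.39 to -0.31 for *Oprl1*, -0.58 to -0.27 for *Oprd1*, -0.62 to -0.27 for *Oprk1* and -0.34 to 0.17 for *Oprm1*, whose sign turned without control library 11 (0.096) and without mutant library 5 (0.17). The log2 ratio of *Pnoc* to *Oprl1* ran from 2.09 to 2.23, with 1.95 among libraries 2, 3 and 5 and 2.33 among libraries 10 to 13. edgeR without its legacy setting was added after the data were seen and changed no call of an opioid gene. No paired analysis was possible because the columns carry library numbers and no replicate numbers. With 4 against 3 libraries, the interval of *Oprm1* spans more than 1 log2 unit (-0.99 to 0.75), which limits what can be said of it. That of *Oprk1*, a gene of higher level, does so too (-1.05 to 0.087). The part of expression level in these widths was not tested.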
